A study of Mus musculus with 2 samples.

Results

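The genes of basement membranes and of the fibrillar stroma were traced to their source cells in islets of lean and of high-fat diet-fed mice by single-cell RNA sequencing (scRNA-seq). A gene was counted as a member where its symbol marks a collagen chain (Col, a number, a and a number) or a laminin α, β or γ chain, or where it was Nid1, Nid2, Hspg2 or Sparc, and where it had at least 10 unique molecular identifiers (UMIs, 1 per captured transcript end) over both libraries. Of 31053 genes in the table, 59 carried such a name and 48 passed the UMI minimum, of which 30 had at least 100 UMIs. The 11 below it were Col9a1, Col4a6, Col11a1, Col24a1, Col10a1, Col12a1, Col23a1, Col22a1, Col2a1, Lama1 and Col17a1. The members fell into 8 fibrillar collagens, 5 chains of collagen IV, 6 of collagen VI, collagens XV and XVIII, 10 laminin chains, 3 linkers, Sparc and 13 other collagens.

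The libraries came from male C57/B6 mice aged 16 weeks. WT mice are labelled wild-type, and HFD mice had eaten a diet with 60% of kcal from fat for 10 weeks from the age of 6 weeks. Islets of 4 mice were pooled in each group, dispersed, cleared of dead cells and sequenced as 1 library, so diet, islet preparation and library cannot be told apart and no test between the groups is possible. Every interval below is a 95% interval of the UMI counts (exact Poisson for a level, exact conditional for a ratio, Clopper-Pearson for a share) and covers counting error only, not the spread between mice or cells.

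Collagens are trimers of α chains. Fibrillar collagens bear the tension of connective tissue and are made mainly by fibroblasts, whereas collagen IV and the laminins each form a sheet under epithelia and around vessels, and nidogens and perlecan tie these sheets together into a basement membrane. In mouse islets the endocrine cells lie against capillaries, and the basement membrane they meet is known to be laid down in large part by the endothelium. Sparc is a secreted protein that binds collagen.

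The 4 stretches printed next are shown because the results turn on these genes, and each is from RefSeq on build GRCm38.p6, in which 36 of the 48 members had an entry. Col4a1 and Col4a2 lie head to head on chromosome 8, and their annotated starts overlap by 22 bases (chr8:11312805-11312826, + strand), which are the first transcribed bases of each gene. Col1a2 and Col3a1 are shown because they were the fibrillar collagens with the most UMIs in the endothelial-pericyte class, and Col6a3 because it was counted in β cells without its partner chain. For these 3 genes the 250 bases before the start are given in the direction of transcription, at chr6:4505368-4505617 (+), chr1:45311288-45311537 (+) and chr1:90843972-90844221 (−).
Col4a1 and Col4a2: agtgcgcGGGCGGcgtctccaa
Col1a2: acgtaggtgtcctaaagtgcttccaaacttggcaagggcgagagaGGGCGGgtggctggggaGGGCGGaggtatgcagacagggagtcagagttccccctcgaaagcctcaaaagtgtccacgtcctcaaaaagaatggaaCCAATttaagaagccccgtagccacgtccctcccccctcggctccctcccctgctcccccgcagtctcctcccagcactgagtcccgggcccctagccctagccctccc
Col3a1: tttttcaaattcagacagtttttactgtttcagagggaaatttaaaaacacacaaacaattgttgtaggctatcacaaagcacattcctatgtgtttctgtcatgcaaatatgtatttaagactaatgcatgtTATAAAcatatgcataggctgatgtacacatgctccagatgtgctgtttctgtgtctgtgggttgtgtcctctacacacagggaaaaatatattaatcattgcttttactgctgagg
Col6a3: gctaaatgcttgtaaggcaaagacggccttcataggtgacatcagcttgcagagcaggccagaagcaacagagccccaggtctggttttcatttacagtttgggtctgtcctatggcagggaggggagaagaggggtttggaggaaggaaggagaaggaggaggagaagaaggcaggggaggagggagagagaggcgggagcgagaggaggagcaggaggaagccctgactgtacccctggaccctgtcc
Capitals mark matches on either strand to the CCAAT box (CCAAT), to the TATA box, spelled TATAAA, and to the GC box, spelled GGGCGG. No match overlaps another in these stretches. The CCAAT box occurred in 33.3% of the 36 members' windows of 250 bases against 33.8% of all 32851 windows, the TATA box in 8.33% against 12.4%, and the GC box in 61.1% against 32.7%. The Col1a2 window held a CCAAT box and a GC box at 2 places, the Col3a1 window held a TATA box, and the Col6a3 window held no match. A match describes letters and not a bound site.

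The WT library held 73843674 UMIs and the HFD library 94375138, and 2493 and 6673 cells were kept. The libraries differed in depth per cell, in the clusters their cells formed and in the β-cell transcripts counted in other cells: the UMIs of the β markers summed to 4825 in WT and 15734 in HFD fibroblast-like cells per 1000000 UMIs of the class (CPM, the level used throughout), and insulin took 0.311 to 0.527% of UMIs in the WT and 1.33 to 1.44% in the HFD classes of fibroblast and vessel cells. Of all cell barcodes, 9 occurred in both libraries, of which 3 were kept in both. No member was used to cluster the cells, nor were the hormone genes Ins1, Ins2, Gcg, Sst and Ppy, so the members did not define the classes.

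Cells were classed by markers that are not members. The fibroblast-like class (59 WT and 23 HFD cells, the same cluster in both libraries) had all 12 fibroblast markers, with Dcn, a proteoglycan of collagen fibrils, at 14798 CPM in WT and 14842 in HFD, and the endothelial markers summed to 371 and 531 CPM. The endothelial-like class (99 and 78 cells) had all 12 endothelial markers, and the fibroblast markers summed to 3.53 CPM in WT and 0 in HFD. A further class of 51 and 65 cells carried endothelial and pericyte markers together, with Rgs5, a pericyte gene, at 2692 and 2502 CPM, and is called endothelial-pericyte. Its median of 13407 UMIs per cell in WT and 5602 in HFD compares with 4411 and 2101 in the endothelial-like class, and whether each barcode held 1 cell or more was not tested. Of 6 smooth muscle markers, 4 were over 50 CPM in the endothelial-pericyte class of each library. All 6 summed to 1800 CPM in WT and 1279 in HFD there, against 37.0 and 107 CPM in endothelial-like cells. β-like cells numbered 1645 and 4406, and 403 WT and 1498 HFD cells stayed unnamed.

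Fibroblast-like cells gave the highest member CPM, and vessel cells came next. The 48 members summed to 22811 CPM (22283 to 23349) in WT and 19343 CPM (18107 to 20641) in HFD fibroblast-like cells. Endothelial-like cells had 7234 and 7438 CPM and endothelial-pericyte cells 6792 and 8136 CPM. These classes stood far above the epithelial, endocrine and blood cells.

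Ductal-like cells had 859 CPM in WT (57 cells) and 730.5 CPM in HFD (32 cells). The β-like cells had 42.7 and 31.9 CPM, and α-like, δ-like and macrophage-like cells lay between 45.7 and 98.0 CPM in either library. Insulin transcripts took 61.5% (WT) and 57.1% (HFD) of what was counted in β-like cells, which lowers the CPM of every other gene in these cells. Per cell the order of the fibroblast-like, vessel and ductal-like classes was the same. Members took a median of 2.23% of a fibroblast-like cell's UMIs in WT and 1.60% in HFD. Single fibroblast-like cells ranged from 0.567% to 3.78% in WT and from 0.675% to 3.90% in HFD. The medians were 0.692% and 0.736% in endothelial-like, 0.646% and 0.768% in endothelial-pericyte and 0.0906% and 0.0674% in ductal-like cells. Ductal-like and fibroblast-like cells did not overlap in either library, while the vessel classes overlapped both each other and the lower fibroblast-like cells.

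**Figure D1:**
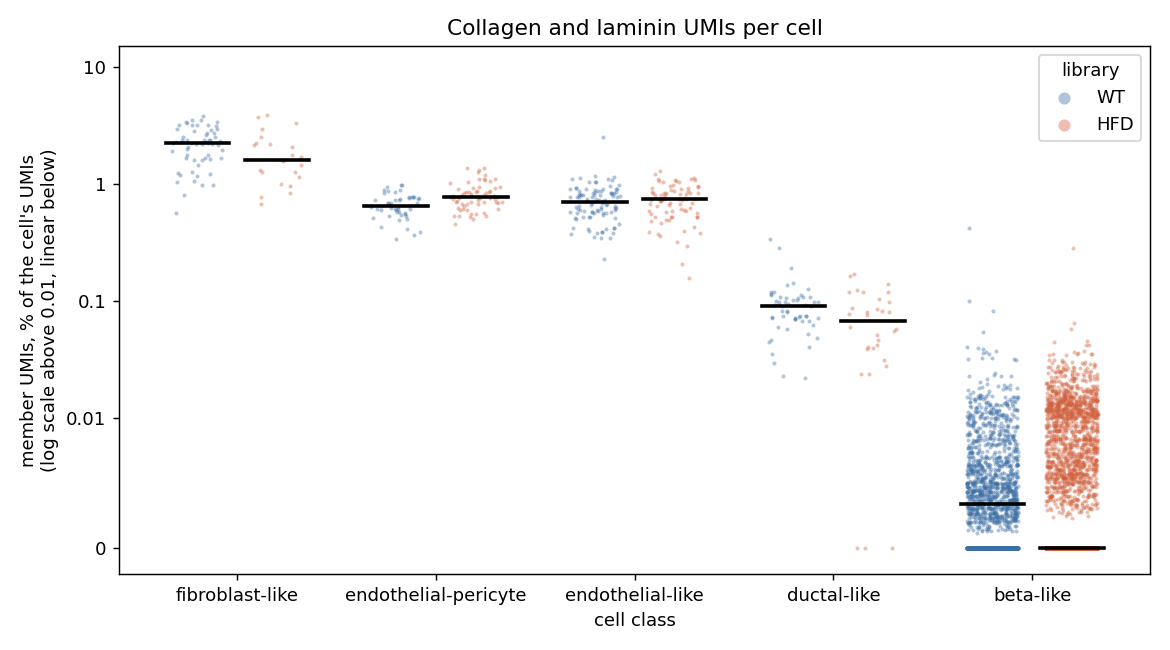
Each point is a cell, plotted by class and library against the percentage of its UMIs that came from the 48 members, and the black bar is the median. The scale is logarithmic above 0.01% and linear below. The medians were 2.23% in WT and 1.60% in HFD fibroblast-like cells, 0.646 to 0.768% in the vessel classes and under 0.1% elsewhere.

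The share of all member UMIs in a library depended on the number of cells caught as well as on their level. In WT, fibroblast-like cells gave 34.5%, endothelial-pericyte 22.3%, endothelial-like 19.98% and β-like cells 11.5% of the 20539 member UMIs. In HFD, with 23 fibroblast-like cells among 6673, fibroblast-like cells gave 11.0%, endothelial-pericyte 34.9%, endothelial-like 16.0% and β-like cells 21.9% of 8277. These shares cannot separate fewer cells of a type from less RNA per cell, and they moved with the selection of cells: with at most 15000 UMIs per barcode the fibroblast-like share was 52.1% in WT and 13.1% in HFD.

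For each member the source was taken as the class of at least 20 cells with the highest CPM. In WT it was the fibroblast-like class for 28 of 48 members, where 13.7% of all 15880 genes compared had their highest CPM in that class, and for 22 of these the interval of the ratio to the next class lay above 1. The endothelial-like class was the source of 7 (14.6% of all genes), the endothelial-pericyte class of 3 (14.8%), the ductal-like class of 5 (20.3%), α-like cells of 3 (7.58%) and β-like cells of 2 (6.62%). No member had its source in δ-like (14% of all genes) or macrophage-like cells (8.37%).

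The HFD library gave fibroblast-like cells as the source of 21 members (12.7% of all 15892 genes), 16 of them with an interval above 1. It gave the endothelial-pericyte class for 8 (11.4%), the endothelial-like class for 6 (12.1%), the ductal-like class for 5 (15.2%), β-like cells for 4 (8.95%), δ-like cells for 2 (15.1%), α-like (6.31%) and T-like cells (11.2%) for 1 each, and macrophage-like cells (7.02%) for none. The source was the same in both libraries for 31 of the 48 members and for 23 of the 30 with at least 100 UMIs, 15 of those 23 being fibroblast-like and 6 of a vessel class. The 7 that differed were Lamc1, Lama4, Lamb2, Col18a1, Col27a1, Col20a1 and Col11a2, and apart from Col27a1 in WT none of their sources stood apart from the next class. Neither the agreement between libraries nor the intervals above 1 were counted over all genes. These counts therefore cannot be read as particular to the members.

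**Figure D2:**
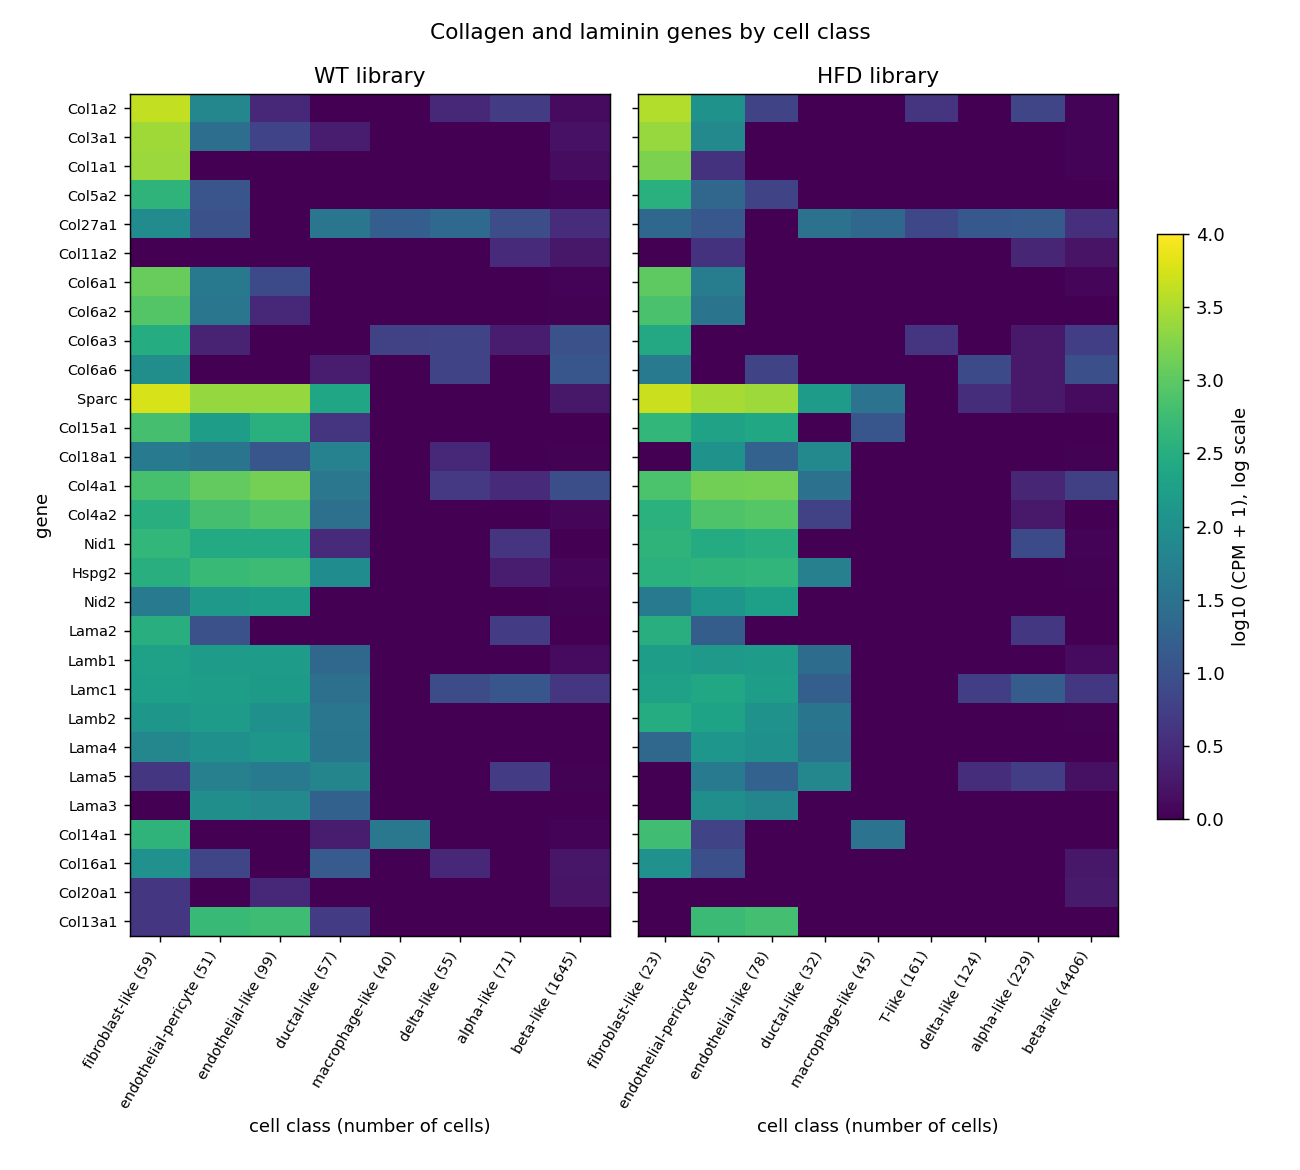
Colour gives log10(CPM + 1) of 29 members with at least 100 UMIs (rows) in each class (columns) of the WT (left) and HFD (right) library. Col1a1, Col1a2, Col3a1 and the collagen VI chains Col6a1 and Col6a2 are bright in the fibroblast-like column and Col4a1, Col4a2, Col13a1 and Hspg2 in the vessel columns.

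The fibrillar collagens were highest in the fibroblast-like class. Col1a2, a chain of collagen I, had 4252 CPM (4025 to 4487) in WT and 3440 CPM (2930 to 4012) in HFD fibroblast-like cells. Its partner Col1a1 had 2495 CPM (2322 to 2677) and 1614 CPM (1271 to 2020), and Col3a1, the chain of collagen III, 2679 and 2399 CPM. The intervals of WT and HFD overlapped for Col3a1 and did not for Col1a2 and Col1a1.

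The next class by level was the endothelial-pericyte class for Col1a2 (69.6 CPM in WT, 109.9 in HFD) and for Col3a1 (26.7 and 76.1 CPM), which put fibroblast-like cells 61.1-fold (45.7 to 83.6) and 31.3-fold (22.0 to 45.6) higher for Col1a2. Col5a2, a chain of collagen V that helps to start fibrils, had 399.7 CPM in WT and 339.7 in HFD fibroblast-like cells, 38.6-fold and 17.2-fold above the endothelial-pericyte class. In both libraries these fibrillar collagens were in fibroblast-like cells at 17.2 times or more the level of any other class.

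Sparc was the member with the most UMIs, 7571 over both libraries, and was shared by fibroblasts and vessels. It had 5728 CPM (5465 to 6000) in WT and 4735 CPM (4134 to 5399) in HFD fibroblast-like cells. The endothelial-pericyte class had 2328 and 2944 CPM and the endothelial-like class 2299 and 2552 CPM, so the lead of fibroblast-like cells over the next class was 2.46-fold (2.30 to 2.64) in WT and 1.61-fold (1.39 to 1.86) in HFD. Ductal-like cells had 223 and 160.1 CPM.

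Col27a1 and Col11a2 were distributed otherwise. Col27a1, a fibrillar collagen known from cartilage, had 83.8 CPM in WT fibroblast-like cells (26 UMIs) and 21.2 CPM in HFD (1 UMI), 36.6 and 30.0 CPM in ductal-like and 22.0 and 11.4 CPM in δ-like cells. Of its UMIs, 47.7% in WT and 53.6% in HFD were in the numerous β-like cells at 2.25 and 2.49 CPM. Col11a2 had no UMI in fibroblast-like cells, and 83.6% and 73.5% of its UMIs were in β-like cells, at 0.833 and 0.632 CPM.

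Collagen VI forms beaded filaments beside the fibrils from α1, α2 and a long α3-type chain. Col6a1 had 1186 CPM in WT and 1019 in HFD fibroblast-like cells, Col6a2 864 and 701 CPM, and Col6a3 299.8 and 254.8 CPM. The endothelial-pericyte class was next for Col6a1 (40.0 and 47.9 CPM) and Col6a2 (35.5 and 33.8 CPM), a gap of 29.7-fold (20.1 to 45.6) and 21.3-fold (12.02 to 39.5) for Col6a1. Col6a6, another α3-type chain, had 93.5 CPM from 29 UMIs in WT and 42.5 CPM from 2 UMIs in HFD fibroblast-like cells. For Col6a3 and Col6a6 the next class was not a vessel or pericyte class but the β-like cells.

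The main collagen IV chains were highest in vessel cells. Col4a1, the α1 chain, had 1437 CPM (1340 to 1539) in WT and 1475 CPM (1302 to 1665) in HFD endothelial-like cells, 1100 and 1431 CPM in the endothelial-pericyte class and 687 and 743 CPM in fibroblast-like cells. Col4a2, the α2 chain of the same trimer, had 813 and 881 CPM, 665 and 797 CPM, and 329 and 361 CPM in the same order. The endothelial-like class was above the endothelial-pericyte class in WT, 1.31-fold (1.18 to 1.44) for Col4a1 and 1.22-fold (1.07 to 1.40) for Col4a2, and not beyond counting error in HFD, where the ratios were 1.03 (0.885 to 1.20) and 1.10 (0.903 to 1.35).

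Collagens XV and XVIII sit at the face of basement membranes, and the C-terminal piece of collagen XVIII is endostatin. Col15a1 had 654 CPM in WT and 446 in HFD fibroblast-like cells, 346 and 247 CPM in endothelial-like and 167 and 200.02 CPM in endothelial-pericyte cells. Col18a1 was low and had no clear source: 58.0 CPM in WT and 75.1 in HFD ductal-like, 34.1 and 112.7 CPM in endothelial-pericyte, 45.1 CPM in WT fibroblast-like cells and no UMI in HFD fibroblast-like cells, where 3 UMIs would be 63.7 CPM.

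The linkers differed in source. Hspg2, the core protein of perlecan, was highest in the vessel classes, with 561 CPM in WT and 432 in HFD endothelial-like, 511 and 394 in endothelial-pericyte and 319 and 361 CPM in fibroblast-like cells. Nid1 was highest in fibroblast-like cells, with 279 and 337 CPM in endothelial-like, 283 and 293 in endothelial-pericyte and 438 and 403 CPM in fibroblast-like cells, and its lead over the next class was 1.55-fold (1.23 to 1.94) in WT and 1.20-fold (0.675 to 2.04) in HFD. Nid2 had 169 and 179.5 CPM, 145 and 127 CPM, and 41.9 and 42.5 CPM in the same order. The nidogens thus differed in balance: Nid1 made up 62.2 to 69.8% of nidogen UMIs in the vessel classes and 91.3% (85.5 to 95.3) in WT and 90.5% (69.6 to 98.8) in HFD fibroblast-like cells.

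Laminin chains divided by role. Of the α chains, Lama2 was a fibroblast product with 316 CPM in WT and 318 in HFD fibroblast-like cells, against 8.88 and 14.1 CPM in the next class. Lama4, the α chain typical of endothelium, had 132 and 101 CPM in endothelial-like, 102 and 127 in endothelial-pericyte, and 70.9 CPM (22 UMIs) and 21.2 CPM (1 UMI) in fibroblast-like cells. Lama5 was highest in ductal-like cells (65.1 and 70.0 CPM), with 54.8 and 45.1 CPM in endothelial-pericyte cells. The ductal-like class did not stand apart for it, with ratios of 1.19 (0.781 to 1.83) in WT and 1.55 (0.702 to 3.40) in HFD. Lama4 made up 75.8% of Lama4 and Lama5 UMIs in WT and 85.7% in HFD endothelial-like cells against 34.7% and 30.0% in ductal-like cells, and these intervals did not overlap in either library.

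The β and γ chains were broader. Lamb1 and Lamc1, which pair with several α chains, had 146 to 190 CPM and 148 to 239 CPM over the fibroblast-like, endothelial-like and endothelial-pericyte classes of both libraries, and no class stood apart for either. Lamb2 had 158 and 208 CPM in endothelial-pericyte, 101 and 107 in endothelial-like, and 132 and 297 CPM in fibroblast-like cells. Lama3, another α chain, had 97.7 and 98.6 CPM in endothelial-pericyte and 75.8 and 67.3 CPM in endothelial-like cells, against 16.3 CPM in WT ductal-like cells and no UMI in HFD ductal-like cells.

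Of the other collagens, 4 had at least 100 UMIs. Col13a1, a collagen with a transmembrane segment, had 577 CPM in WT and 634 in HFD endothelial-like and 509 and 538 CPM in endothelial-pericyte cells, with 1 UMI in WT and none in HFD fibroblast-like cells. Col14a1, which lies on fibrils, had 399.7 and 594.5 CPM in fibroblast-like cells, followed by macrophage-like cells with 8 and 3 UMIs. Col16a1, also found beside fibrils, had 106 CPM in the fibroblast-like cells of each library, from 33 UMIs in WT and 5 in HFD. Of its UMIs, 38.5% and 53.5% lay in β-like cells at 0.761 and 0.808 CPM. Col20a1 had 34 and 53 UMIs in β-like cells and at most 1 in any other named class, with 23 and 27 in unnamed cells.

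There were 18 members below 100 UMIs over both libraries. Col5a1 and Col5a3, chains of collagen V, had 235 and 168 CPM in WT and 191 and 84.9 CPM in HFD fibroblast-like cells, apart from the next class in both libraries. The same held for Lamc3 (139 and 297 CPM) and for Col6a5, which had 6 and 3 UMIs there. Lamb3, a further β chain, had 16 UMIs (16.3 CPM) in WT ductal-like cells and 1 in WT β-like cells, while in HFD its 6 T-like and 3 ductal-like UMIs did not separate the classes.

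Col4a3, Col4a4 and Col4a5, the chains of the collagen IV of the kidney filter, had 64.5, 80.6 and 54.8 CPM in WT fibroblast-like cells, their WT source, and 1 UMI each in HFD. Col8a1, a short-chain collagen, had 10 and 1 UMIs in fibroblast-like cells. Col19a1 in WT was highest in the endothelial-pericyte class from 2 UMIs. The sources of Col7a1, Col8a2, Col9a2, Col9a3, Col25a1, Col26a1, Col28a1 and Col6a4 did not stand apart from the next class in either library.

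Each of the 48 members had a gene model, and none shared exons with a gene counted on the same strand. Exons of 13 met those of a gene on the opposite strand.

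β-like cells held some chains without the partners they have elsewhere. In WT β-like cells Col4a1 had 450 UMIs (8.15 CPM) against 7 of Col4a2, and in HFD β-like cells 267 (4.69 CPM) against 2. Col4a1 thus made up 98.5% (96.9 to 99.4) and 99.3% (97.3 to 99.9) of the pair. In the fibroblast-like, endothelial-like and endothelial-pericyte classes it made up 62.3 to 67.6% in either library, and in WT ductal-like cells 56.1% (43.3 to 68.3). The protein trimer joins 2 α1 chains with 1 α2 chain, and UMIs count transcript ends, which do not grow with gene length.

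Collagen VI showed the same kind of gap. Col6a3 had 486 UMIs in WT β-like cells (8.81 CPM) against 6 of Col6a1, and 258 (4.53 CPM) against 7 in HFD. Col6a1 was therefore 1.22% (0.449 to 2.64) and 2.64% (1.07 to 5.37) of the pair in β-like cells and 79.8% (75.9 to 83.4) and 80.0% (67.7 to 89.2) in fibroblast-like cells. Col6a6 had 592 UMIs (10.7 CPM) in WT and 492 (8.64 CPM) in HFD β-like cells, which was 82.9% and 72.0% of all Col6a6 UMIs, and β-like cells held 76.4% and 69.4% of Col6a3 and 18.7% and 22.6% of Col4a1 UMIs. With at most 15000 UMIs per barcode, which removed most WT β-like cells, Col6a1 was 35.3% (14.2 to 61.7) of the pair in WT and 3.87% (1.43 to 8.23) in HFD.

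**Figure D3:**
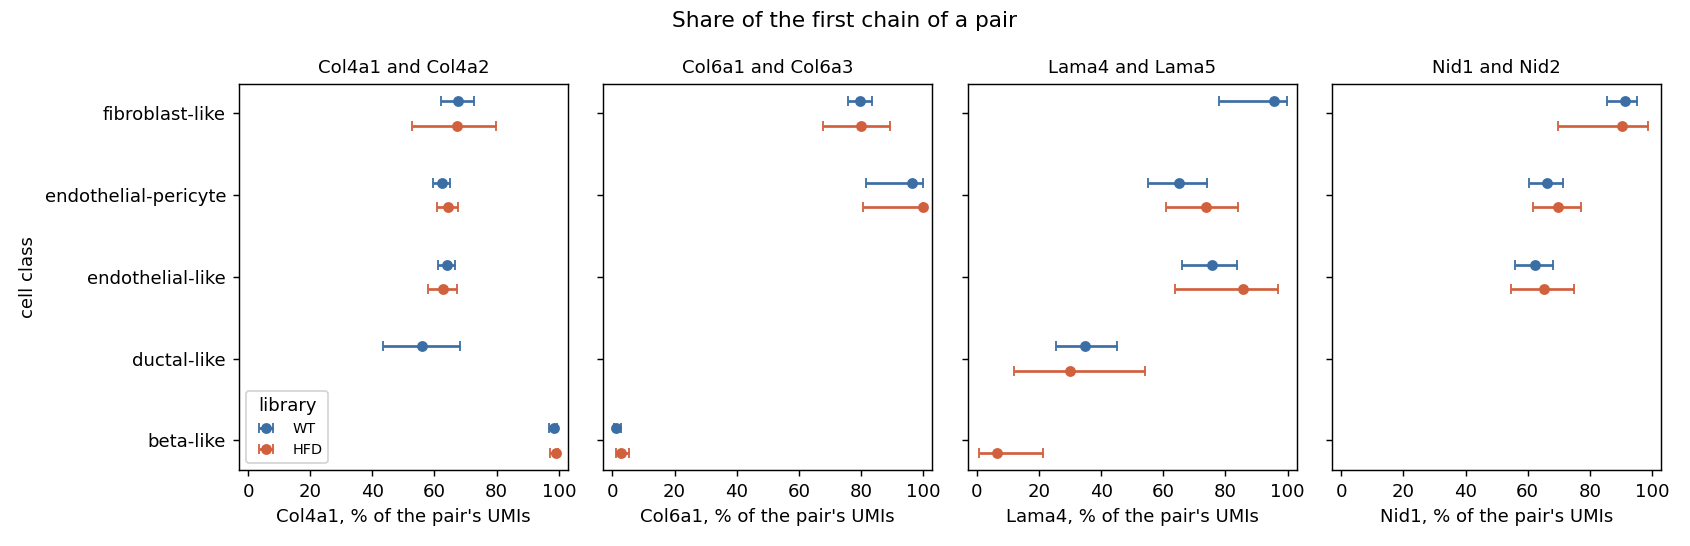
Points give the percentage that the first chain made up of the UMIs of a pair of chains in each class, for the WT and HFD library, and bars are 95% Clopper-Pearson intervals. Col4a1 lay at 62.3 to 67.6% in fibroblast and vessel classes and at 98.5% and 99.3% in β-like cells, and Col6a1 at 79.8% and 80.0% in fibroblast-like and 1.22% and 2.64% in β-like cells.

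These UMIs were spread over many β-like cells. In WT, Col4a1 occurred in 367, Col6a3 in 348 and Col6a6 in 457 of 1645 cells, with at most 5 UMIs of any of the 3 in 1 cell. In HFD they occurred in 255, 238 and 457 of 4406 cells, with at most 4. By contrast the 30 Col3a1 UMIs in WT β-like cells lay in 6 cells, 24 of them in 1 cell, and the 46 Sparc UMIs lay in 19 cells, 27 of them in 1 cell.

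The intervals of the Col4a1 share in β-like cells did not overlap those of the fibroblast-like, endothelial-like and endothelial-pericyte classes or of WT ductal-like cells, and the α-like, δ-like and macrophage-like cells held too few UMIs of the pairs for such a share. Over α-like, δ-like, macrophage-like and T-like cells together Col4a1 had 4 UMIs in WT (2.26 CPM) and 2 in HFD (0.992 CPM), so β-like cells were 3.60-fold (1.40 to 13.3) and 4.73-fold (1.30 to 39.2) higher. For Col6a3 the ratios were 3.11 (1.33 to 9.63) and 4.57 (1.25 to 37.9), and for Col6a6 6.32 (2.15 to 30.7) and 4.36 (1.69 to 16.0). Against α-like cells alone, the Col4a1 ratio was 4.13 (1.14 to 34.2) in WT and 2.75 (0.755 to 22.8) in HFD. That of Col6a3 was 8.92 (1.59 to 353) and 5.32 (0.946 to 211), so both HFD intervals held 1. Col6a6 had no UMI in WT α-like cells, and its HFD ratio was 10.1 (1.81 to 401). No profile of free RNA was measured, and its part in these counts was not tested.

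Lamc1 and Col27a1, also counted in β-like cells, did not share this. Lamc1 in β-like cells (3.22 and 3.39 CPM) was 0.380 (0.224 to 0.693) and 0.380 (0.234 to 0.654) of its level in those 4 classes together. Col27a1 was at 0.173 (0.110 to 0.282) and 0.209 (0.135 to 0.338). Insulin took 61.5% (WT) and 57.1% (HFD) of the UMIs in β-like cells, which lowers these ratios, and how far it did so was not tested. At a fixed 1000 UMIs per cell, Col4a1 was found in 0.669% of WT and 0.477% of HFD β-like cells (22.3% and 5.79% without thinning), in 0 of 157 HFD T-like cells, which allows up to 2.32%, and in 69.1% and 78.1% of endothelial-like cells. At that depth the share in β-like cells cannot be told from background.

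The β-like cells formed 6 clusters of at least 20 cells in WT and 13 in HFD. Col4a1 had a UMI in all of them, from 1.81 to 11.2 CPM in WT and from 2.98 to 12.6 CPM in HFD, whereas Col4a2 reached at most 0.174 and 0.146 CPM. Col6a6 ranged from 8.94 to 12.8 and from 5.70 to 12.6 CPM. Col6a3 ranged more widely, from 1.81 to 21.8 CPM in WT and from 0 to 10.2 CPM in HFD.

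**Figure D4:**
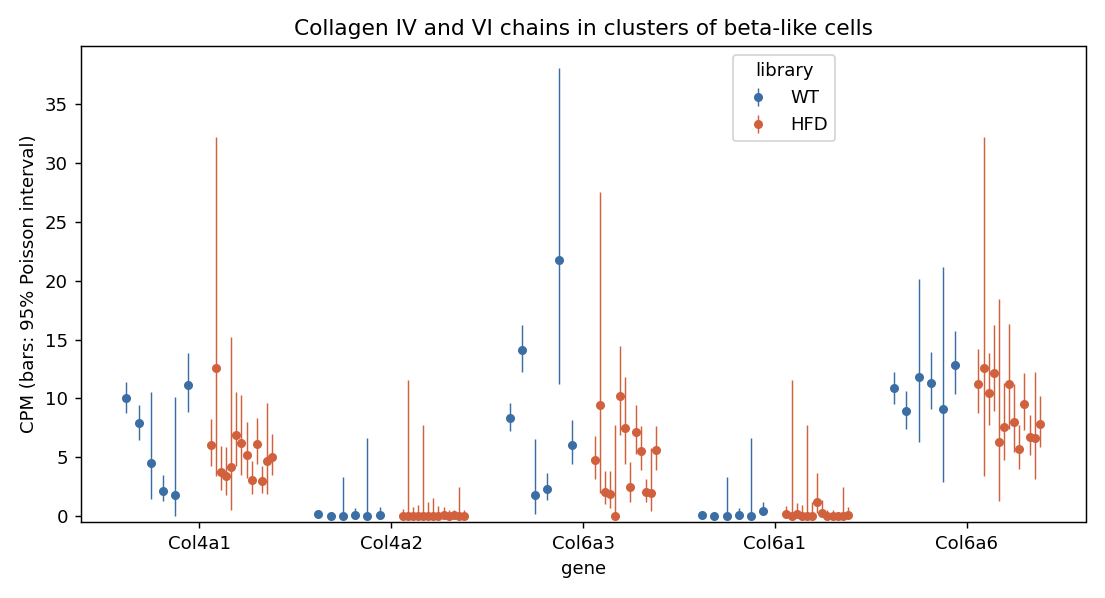
Each point is the CPM of a gene in a cluster of β-like cells, with the exact 95% Poisson interval, for the WT and HFD library. Col4a1 and Col6a6 lie above Col4a2 in every cluster, whose highest value was 0.174 CPM, Col6a3 reaches 21.8 CPM with 1 HFD cluster at 0, and Col6a1 stays at or below 1.25 CPM.

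Among the vessel cells, those with pericyte and smooth muscle markers added fibrillar and collagen VI chains. Of the 23 members compared in WT, 5 were at least 2-fold higher in the endothelial-pericyte than in the endothelial-like class (9.4% of all genes) and 1 at least 2-fold lower (4.74%). Of 21 in HFD, 7 were higher (13.5%) and none lower (4.38%). Col1a2 had 47 UMIs in endothelial-pericyte and 1 in endothelial-like cells in WT, and 39 and 1 in HFD, ratios of 39.5 (6.75 to 1592) and 19.6 (3.31 to 793). Col3a1 had 18 and 3 UMIs in WT, a ratio of 5.04 (1.47 to 26.7), and 27 and 0 in HFD, where it was at least 4.52-fold higher, taking 3 UMIs as the floor of the class.

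Col6a1, Col6a2 and Col18a1 had the same direction in both libraries. Col6a1 was 5.67-fold (1.98 to 22.3) higher in WT and at least 2.85-fold in HFD, Col6a2 20.2-fold (3.29 to 829) and at least 2.01-fold, and Col18a1 3.22-fold (1.27 to 9.66) and 6.70-fold (2.13 to 33.8). Lamb2 was 1.58-fold (1.13 to 2.21) and 1.96-fold (1.17 to 3.43) higher. Col15a1 was lower in WT, at 0.484 (0.381 to 0.613), and its ratio in HFD was 0.810 (0.549 to 1.21). The fibroblast markers summed to 210.3 and 295.8 CPM in the endothelial-pericyte class against 38834 and 37412 CPM in fibroblast-like cells. Dcn, the proteoglycan that marked fibroblasts, had 0 UMIs in WT and 16 in HFD in this class.

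Collagen I chains were unequal in these cells. Col1a1, the partner of Col1a2, had 0 UMIs against the 47 of Col1a2 in WT and 1 against 39 in HFD, a Col1a1 share of 0% (0 to 7.55) and 2.50% (0.0633 to 13.2). In fibroblast-like cells the share was 37.0% (34.9 to 39.1) and 31.9% (26.1 to 38.3). Col1a2 occurred in 29 of 51 WT and 25 of 65 HFD endothelial-pericyte cells, with at most 4 UMIs in a cell. Col6a1 and Col6a2 had 27 and 24 UMIs in WT and 17 and 12 in HFD in the class, against 1 and 0 of Col6a3.

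The diets were compared within each class as the HFD to WT ratio of CPM. In fibroblast-like cells the summed ratio was 0.848 (0.791 to 0.909). Among 31 members compared, 2 were at least 2-fold higher in HFD (9.93% of 4533 genes) and 7 at least 2-fold lower (22% of genes), and the median log2 ratio of −0.23 stood beside −0.18 for all genes. Col1a1 was lower at 0.647 (0.504 to 0.819), Col1a2 at 0.809 (0.683 to 0.953) and Sparc at 0.827 (0.716 to 0.951), while the ratio of Col3a1 was 0.896 (0.729 to 1.09).

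A pair of laminin chains was higher in HFD fibroblast-like cells: Lamb2 at 2.25 (1.13 to 4.21), with 41 WT and 14 HFD UMIs, and Lamc3, a γ chain, at 2.14 (1.08 to 4.00), with 43 and 14 UMIs. The 7 lower members had 0 to 2 UMIs in HFD, and none of their intervals left out 1. Past 2-fold with an interval that left out 1 lay 2 members above (2.87% of all genes) and 0 below (1.3%). Col18a1 was counted among the 7 with no HFD UMI and so has no fold. Only 23 HFD cells stand behind these values, and for each gene the cell with the most UMIs held 30 of the 162 for Col1a2, 17 of the 76 for Col1a1 and 36 of the 223 for Sparc. The β markers, at 4825 and 15734 CPM, moved with the diet in this class, and their part in the ratios was not tested.

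In the endothelial-pericyte class the summed ratio was 1.20 (1.14 to 1.26). Of 26 members, 2 were at least 2-fold higher (3.49% of 8156 genes) and none lower (11.7%), with a median log2 ratio of 0.29 for members and −0.11 for all genes. Col18a1 was at 3.31 (1.93 to 5.79), from 34.1 to 112.7 CPM, and Col3a1 at 2.85 (1.52 to 5.50), from 26.7 to 76.1 CPM. Col1a2 was at 1.58 (1.01 to 2.47), Lamc1 at 1.36 (1.02 to 1.81), Col4a1 at 1.30 (1.16 to 1.46), Sparc at 1.26 (1.17 to 1.37) and Col4a2 at 1.20 (1.03 to 1.39), whereas Hspg2 was lower at 0.772 (0.630 to 0.942). Both members past 2-fold had an interval that left out 1 (1.81% of all genes above, 4.1% below).

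Different clusters held this class in the libraries: 32 of 51 WT cells were in one and 64 of 65 HFD cells in the other. Within the latter cluster (19 WT and 64 HFD cells) the summed ratio was 1.29 (1.21 to 1.37), Col1a2 was at 2.32 (1.14 to 5.21), Col4a1 at 1.31 (1.12 to 1.54), Sparc at 1.32 (1.18 to 1.477) and Col18a1 at 1.98 (1.02 to 4.15). The Col3a1 ratio within it was 1.78 (0.814 to 4.31) and that of Hspg2 0.870 (0.663 to 1.14). The β markers summed to 3413 CPM in WT and 15534 in HFD, and the pericyte markers to 4854 and 4268 CPM. Of the 12 fibroblast markers 3 had a UMI in WT and 6 in HFD, summing to 210.3 and 295.8 CPM, with Dcn at 0 and 16, C3 at 0 and 19, and Lum at 0 and 3 UMIs. The part of these transcripts in the ratios, those of Col3a1 and Col1a2 included, was not tested.

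Endothelial-like cells had a summed ratio of 1.03 (0.966 to 1.09). None of 16 members was at least 2-fold higher (5.05% of 7066 genes) and 1 was lower (15.4%), Lama5 with 24 WT and 3 HFD UMIs and an interval from 0.0767 to 1.31. Thus no member was past 2-fold with an interval that left out 1 (2.52% of all genes above, 3.57% below). Col4a1 was at 1.03 (0.88997 to 1.18), Col4a2 at 1.08 (0.898 to 1.30), Col13a1 at 1.10 (0.880 to 1.37) and Sparc at 1.11 (0.995 to 1.24). Hspg2 was lower at 0.770 (0.593 to 0.991) and Col15a1 at 0.714 (0.503 to 0.995). Most WT cells (60 of 99) and most HFD cells (50 of 78) were in different clusters, and within the main HFD cluster Hspg2 was at 0.857 (0.570 to 1.28), Col15a1 at 0.693 (0.429 to 1.11) and the summed ratio at 0.943 (0.856 to 1.04).

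**Figure D5:**
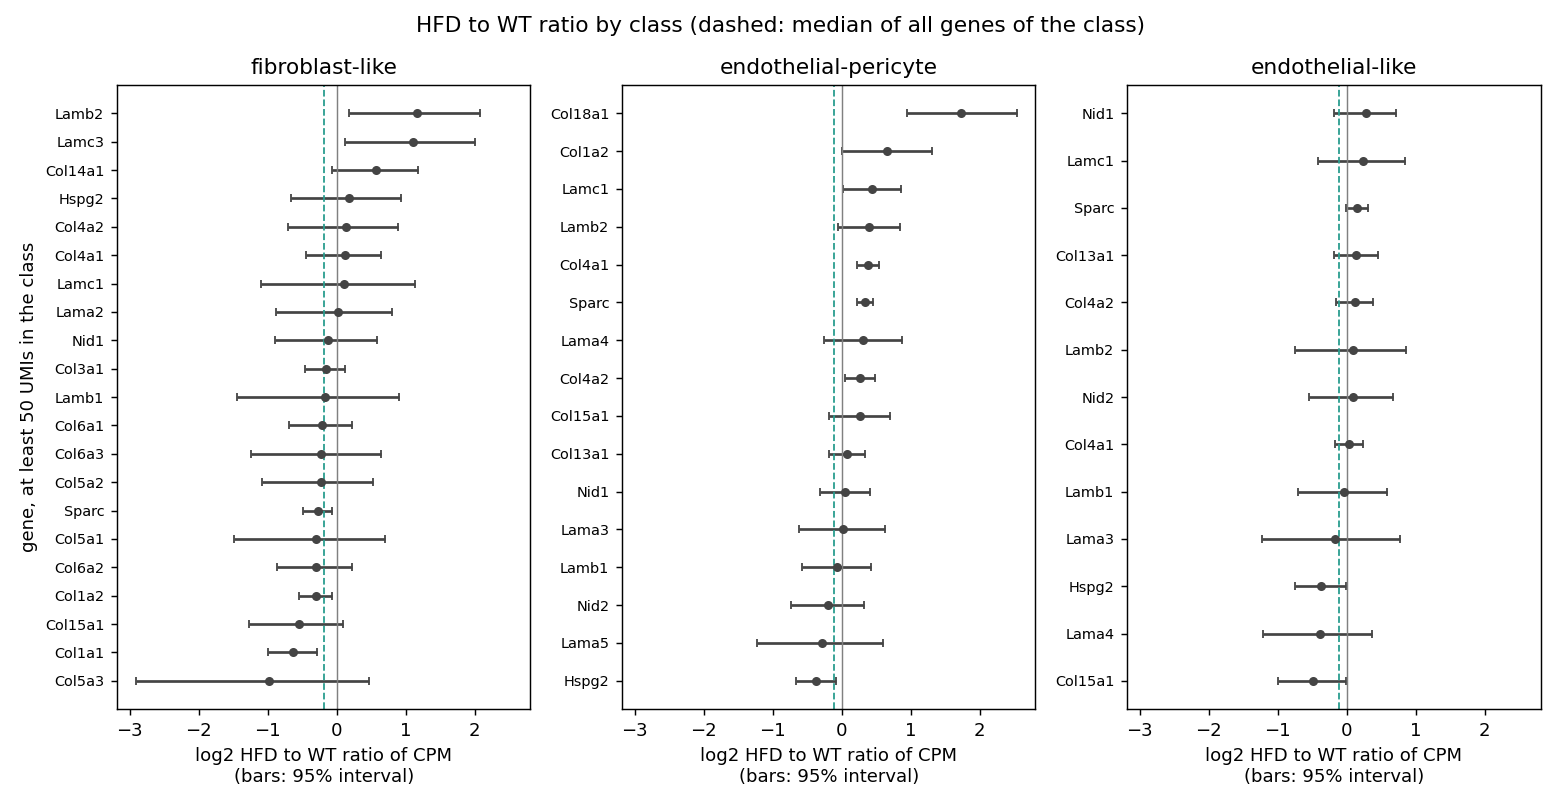
Points are log2 HFD to WT ratios of CPM for members with at least 50 UMIs in the fibroblast-like, endothelial-pericyte and endothelial-like classes, with exact 95% intervals, and the dashed line is the median of all genes in the class. Lamb2 and Lamc3 lie right of 0 in fibroblast-like cells, where Col1a1, Col1a2 and Sparc lie left of it, and Col18a1 has the highest ratio in the endothelial-pericyte class.

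Ductal-like cells had a summed ratio of 0.851 (0.709 to 1.02). Among 17 members 1 was at least 2-fold higher (4.74%), Col9a3 with 7 and 6 UMIs and a ratio of 4.22 (1.17 to 14.7). Counted as lower were 3 (20.4%): Col4a2, and Col16a1 and Lama3, which had no HFD UMI and so no fold. None of the 3 had an interval that left out 1. Past 2-fold with such an interval lay 2.31% of all genes above and 3.9% below. The 71 and 229 α-like cells had a summed ratio of 1.14 (0.794 to 1.63) and 1 of 6 members higher (3.32%), Nid1, and none lower (7.19%). The only member compared in the δ-like (6.16% higher and 6.58% lower) or macrophage-like class (7.95% and 12.1%) was not 2-fold apart.

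In β-like cells the summed ratio was 0.746 (0.701 to 0.793), a log2 ratio of −0.42. With at most 15000 UMIs per barcode the log2 ratio was −1.96 (−2.17 to −1.74) with 13 members 2-fold apart. The share of all genes 2-fold apart under that limit was not counted. Without the limit, 1 of 21 members was at least 2-fold higher (2.93% of 13957 genes) and 5 at least 2-fold lower (2.94%). The median log2 ratio was −0.18 for members and 0.03 for all genes. Some chains spread over many cells were lower in HFD: Col6a3 at 0.514 (0.441 to 0.600), Col4a1 at 0.575 (0.492 to 0.670) and Col6a6 at 0.805 (0.713 to 0.909). Lamc1 (1.05, 0.853 to 1.30) and Col27a1 (1.11, 0.866 to 1.42), also spread over many cells, had intervals that held 1. Of the 21 members, 7 had an interval below 1 (14.9% of all genes) and 1 an interval above 1 (23.6%).

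The 5 lower members were Col3a1, Col1a1, Col1a2, Sparc and Hspg2, at 0.162 to 0.485 with 4 to 18 UMIs in HFD, and 4 of their intervals left out 1 (1.69% of all genes, and 2% of all genes in the other direction). In WT the cell with the most UMIs held 24 of 30 for Col3a1, 11 of 16 for Col1a2, 9 of 21 for Col1a1 and 27 of 46 for Sparc. Of the 12 fibroblast markers, 12 had a UMI in WT and 9 in HFD β-like cells, summing to 37.4 and 39.5 CPM. Dcn had 106 and 33, Clec3b 21 and 3, Igfbp6 19 and 1 and Serpinf1 11 and 0 UMIs, while Gsn and C3 were higher in HFD, and the part of fibroblast transcripts in the ratios was not tested. Lama5 was the 1 higher member, with 4 UMIs in WT and 29 in HFD (28 cells), a ratio of 7.03 (2.47 to 27.5). WT and HFD β-like cells were mostly in different clusters. Within a cluster that held cells of both (278 WT and 162 HFD cells) the summed ratio was 0.650 (0.461 to 0.896), Col4a1 was at 0.417 (0.162 to 0.899), Col6a6 at 0.519 (0.241 to 0.997) and Col6a3 at 0.329 (0.0653 to 1.03). Sparc turned there, with 6 WT UMIs (0.828 CPM) and 2 HFD UMIs (1.33 CPM).

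The sources of genes that make, process, bind and cut these proteins were counted over lists given by function. Unlike the members, these genes were open to use in the clustering, and Mgp, Bgn and Timp3 were among the leading genes of clusters of the fibroblast and vessel classes, so their sources are a description. Fibroblast-like cells were the source of 13.7% of all genes in WT and 12.7% in HFD. Of 15 collagen folding and modifying enzymes, 12 had their highest CPM in fibroblast-like cells in WT and 12 in HFD, and Serpinh1, a collagen chaperone, had 2124 and 1592 CPM there. Of 13 processing and crosslinking genes, 10 passed the UMI minimum and all 10 had a fibroblast-like source in both libraries, among them Pcolce, an enhancer of procollagen cleavage (1760 and 1550 CPM), and Loxl1, a lysyl oxidase (396 and 573 CPM). Of 21 other matrix proteins, 15 and 16 had a fibroblast-like source, with Mgp, a matrix protein that limits calcification, at 4941 and 4183 CPM.

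Of 24 matrix receptors 23 passed the minimum. The source was fibroblast-like for 4 in WT and 5 in HFD (13.7% and 12.7% of all genes), endothelial-like for 1 and 3 (14.6% and 12.1%), endothelial-pericyte for 6 and 6 (14.8% and 11.4%), ductal-like for 6 and 7 (20.3% and 15.2%) and macrophage-like for 5 and 2 (8.37% and 7.02%). Itga1, an integrin chain that binds collagen, had 423 and 544 CPM in endothelial-like and 505 and 485 CPM in endothelial-pericyte cells. Among 17 proteases and inhibitors, 10 and 8 had a fibroblast-like source, while Timp3, an inhibitor of metalloproteinases, was highest in the endothelial-pericyte class at 3879 and 5037 CPM.

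Diet ratios of these lists were read against the same backgrounds. In fibroblast-like cells 7 genes of the 61 compared over the 5 lists were at least 2-fold higher and 7 lower, with 9.93% and 22% of all genes. In the endothelial-pericyte class 5 of 55 were higher and 4 lower, with 3.49% and 11.7% of all genes. Of these 5, 3 were among the 8 proteases and inhibitors compared, whose median log2 ratio was 0.94 beside −0.11 for all genes.

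These 3 were Adamts4, a protease of proteoglycans (124 CPM in WT and 296 in HFD, ratio 2.38, 1.77 to 3.21), Adamts5, a related protease (8 and 9 UMIs, ratio 2.14, 0.733 to 6.38), and Timp1, an inhibitor of metalloproteinases (10 and 15 UMIs, ratio 2.85, 1.20 to 7.10). Timp3 had a ratio of 1.30 (1.22 to 1.38). Adamts4 was also higher in HFD endothelial-like cells (19.4 and 151 CPM, ratio 7.81, 3.75 to 17.4). Of 38 genes of the lists compared in that class, 1 was at least 2-fold higher and 5 lower, with 5.05% and 15.4% of all genes. The chaperone Serpinh1 was lower in HFD fibroblast-like cells at 0.750 (0.582 to 0.953) and higher in endothelial-pericyte cells at 1.32 (1.10 to 1.59). Whether the β markers counted in these cells had a part in these ratios was not tested.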

How the data were processed

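Islets of 4 mice per diet were dispersed, cleared of dead cells with a Dead Cell Removal Kit and run as 1 Single Cell 3′ v3 library (10x Genomics) each. The deposited values are UMI counts per gene and barcode, which the authors made with Cell Ranger 3.0.2 on build mm10. Barcodes with at least 500 genes and at most 20% mitochondrial (mt-) UMIs were kept, with no UMI maximum, whereas the study's own limit was 15000 UMIs. Scrublet (scanpy 1.11.5) called 1 WT and 0 HFD doublets by its own threshold, which is too few to have worked, so the highest scores were left out at 0.8% per 1000 barcodes, which removed 107 and 624 barcodes. Counts were scaled to 10000 per cell, and 2000 variable genes, 50 components and 15 neighbours gave Leiden clusters at resolution 2. The 59 candidate genes, the hormone genes Ins1, Ins2, Gcg, Sst and Ppy, and Cck were left out of the clustering. Clusters that were not endocrine were clustered a second time, and a marker counted as detected at 50 CPM or more and at 0.5 or more of its highest level over clusters. A class needed 3 detected markers. That second clustering and this naming rule were chosen after the clusters were seen, and the members and gene lists were chosen with earlier results of these data known.

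CPM are the UMIs of a gene per 1000000 UMIs of a class in a library. Each gene in a diet comparison had at least 10 UMIs over both libraries in the class. Exact Poisson, exact conditional and Clopper-Pearson intervals at 95% came from scipy 1.17.1, and 3 UMIs served as the floor of a class at 0. With 1 library per group no p-value was computed. Shares of cells with a UMI were compared after thinning each cell to 1000 UMIs. Chain partners, linkers, Sparc, collagens XV and XVIII, every other member with at least 100 UMIs and members with the largest and smallest diet ratios were to be named, of which 1 is counted but not reported here. The scripts were tested on simulated data. Other cell filters, cluster resolutions, scalings and UMI minimums were tried as alternatives.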

Additional observations from a re-analysis of the deposited data

Results flagged for a closer look

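A few members had HFD to WT ratios on opposite sides of 1 in different classes, each with an interval that left out 1. Over all genes compared, such an interval lay above 1 for 5.20% in endothelial-pericyte cells. It lay below 1 for 2.07% in fibroblast-like and 14.9% in β-like cells. Genes with opposite ratios in a pair of classes were not counted over all genes. There was 1 library per diet, so the difference between the classes was not tested. Col1a2 had a log2 ratio of 0.66 in endothelial-pericyte and −0.31 in fibroblast-like cells, a difference of 0.96. Col4a1 had 0.38 in endothelial-pericyte and −0.80 in β-like cells, a difference of 1.18. Sparc had 0.34 in endothelial-pericyte cells against −0.27 in fibroblast-like cells, a difference of 0.61, and against −1.40 in β-like cells, a difference of 1.74. In WT β-like cells 27 of the 46 Sparc UMIs lay in 1 cell, and within 1 cluster of β-like cells the log2 ratio of Sparc was 0.68, the reverse sign, from 6 WT and 2 HFD UMIs.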

How the results depend on the processing

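No paired analysis was possible because each diet has 1 library, and no replicate could be left out for the same reason. The direction of the summed HFD to WT ratio held under every alternative run for the fibroblast-like (log2 −0.50 to −0.22), endothelial-pericyte (0.23 to 0.42), β-like (−1.96 to −0.37) and ductal-like classes (−0.77 to −0.18), and changed sign in endothelial-like cells. Of the 94 summed ratios under alternatives, 82 moved by less than the counting interval. The cause of each change was not tested, except where fewer cells or members were left by construction. Counts of members under the alternatives have no share of all genes beside them. Leaving out the second clustering, the values within 1 cluster and the chain shares under other selections were added after the data were seen.

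With at most 15000 UMIs per barcode the fibroblast-like share of member UMIs was 52.1% in WT (34.5% as reported) and 13.1% in HFD (11.0%), and the share of both vessel classes in HFD was 63.6% (50.9%). Under that limit Col4a1 made up 100% of its pair in WT and 94.7% in HFD β-like cells, Col6a1 35.3% of its pair in WT β-like cells, the log2 summed ratio was 0.42 in endothelial-pericyte, −0.77 in ductal-like and −1.96 in β-like cells, and 13 β-like members were 2-fold apart. With no doublets left out the fibroblast-like share was 33.2% and 10.3% and the vessel share 41.4% in WT (42.3%) and 45.3% in HFD, and 9 WT ductal-like cells remained.

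At a minimum of 1000 genes the vessel classes gave 43.1% (WT) and 49.3% (HFD) and the HFD fibroblast-like class 7.89%. Only 11 HFD fibroblast-like cells were then left, too few for a class, and the vessel classes were the source of 29 members in HFD (14 as reported). Under that filter 0 endothelial-like members (1 as reported) and 2 β-like members (6) were 2-fold apart. With at most 10% mt- UMIs the HFD vessel share was 25.5%, Col6a1 was 3.2% of its pair in WT and Col4a1 100% of its pair in HFD β-like cells, the β-like log2 summed ratio was −0.56, and 2 endothelial-like and 9 endothelial-pericyte members (2 as reported) were 2-fold apart.

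Leiden resolution 1 gave a vessel share of 45.0% in WT and 54.2% in HFD and an endothelial-pericyte log2 summed ratio of 0.36. Resolution 4, which left 1 HFD endothelial-pericyte cell, gave 39.2% and 45.4%, an endothelial-like log2 summed ratio of 0.23, and 5 endothelial-like and 2 β-like members 2-fold apart. Without a second clustering, which left no endothelial-like class, the fibroblast-like share was 35.7% and 11.7% and the vessel share 45.0% and 54.3%.

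Median-of-ratios scaling gave log2 summed ratios of −0.50 in fibroblast-like (−0.24 as reported) and 0.33 in endothelial-pericyte cells (0.26), and CPM without hormone and mt- genes gave −0.61 in β-like cells (−0.42). Within 1 cluster the log2 summed ratio was −0.084 in endothelial-like (0.04 as reported), 0.36 in endothelial-pericyte and −0.62 in β-like cells, and the log2 ratio of Sparc in β-like cells was 0.68, the reverse of −1.40. With at least 50 UMIs in a class 2 fibroblast-like (9 as reported), 0 endothelial-like, 1 endothelial-pericyte and 1 β-like members were 2-fold apart, and with at least 1 UMI 19, 14, 13 and 24. Without thinning a Col4a1 UMI was found in 22.3% of WT and 5.79% of HFD β-like cells and in 98.0% of WT endothelial-like cells.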

Other observations

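Members were also counted in cells outside the named classes. A cluster of 86 WT and 3 HFD cells with 7 of 8 β markers, a median of 3336 UMIs and Gm42418 and AY036118 as its leading genes held 170 UMIs of Col1a1, Col1a2 and Col3a1 against 7 of Col4a1 and Col4a2 in WT, which put the fibrillar genes at 96.0% (92.0 to 98.4) of both sets. In fibroblast-like cells that share was 90.3% (89.2 to 91.3) in WT and 87.1% (83.4 to 90.2) in HFD. A cluster of 20 WT and 11 HFD cells with all 6 smooth muscle markers beside β markers had 3136 and 4905 CPM of members. A further cluster of 7 and 4 cells, with 8 of 8 Schwann cell markers, had 8438 and 8824 CPM.

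Barcodes left out by the filters also held members. Those with under 500 genes had 214 CPM (191 to 239) in WT and 78.7 CPM (65.2 to 94.2) in HFD, against 303 and 101 CPM over all kept cells.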
